A study of Rattus norvegicus with 4 samples.

Results

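Photoreceptor protein chaperones and trafficking genes were examined as a set of 8 named rat genes, taken by symbol from the deposited values of an eye library and a retina library. The genes were Aipl1, Unc119, Reep6, Pde6d, Arl3, Rp2, Rd3 and Mak. Values were found for 7 of the 8, among 14485 gene names in all, and no row under the symbol Rd3 or a synonym of it was found, so Rd3 was not analysed here. The rule for the set names genes by known function and uses no measured value, although it was written with earlier results of these data known. The study sequenced RNA of ocular tissue from wild-type Long Evans rats, a pigmented strain, with ages and sexes not given in the sources used here. Its labels name 4 samples, 2 technical replicates each of eye and of retina, every library being a pool of RNA from 5 rats. The description lines of all samples speak of retina mRNA, while titles and tissue fields separate eye from retina, and the libraries are named here by the tissue field. There was 1 column of values per tissue, so the differences below could not be checked against replicates and carry no p-value. Each file is assigned to the first replicate of its tissue, and it is not known whether its values join both replicates, which also holds for the reads recovered from them.

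The proteins that capture light and pass on the signal are made in the inner segment of a photoreceptor and must reach the outer segment, a modified cilium. Several of them, among them transducin, the PDE6 phosphodiesterase and the opsin kinase, carry a lipid tail that would hold them on the wrong membrane, and soluble carriers wrap the tail during transport. In the textbook scheme AIPL1 works with HSP90 to fold and assemble PDE6, UNC119 carries acylated cargo such as the transducin alpha subunit, and PDE6D carries prenylated cargo. The small GTPase ARL3, in its GTP form, makes both carriers let go of their cargo, and RP2 is the protein that switches ARL3 off again. REEP6 shapes endoplasmic reticulum and vesicle membranes in rods, RD3 binds retinal guanylate cyclase and is needed for its export, and MAK is a kinase of the photoreceptor cilium. Variants in the human counterparts of several of these genes are known causes of inherited retinal disease.

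Where members have a reference promoter, the letters just upstream of the gene start are given first, because 3 of them turned out lower in eye and another, Rp2, did not. RefSeq promoter windows of the rat assembly GRCr8 were matched by symbol for 5 of the 7 measured genes (Aipl1, Unc119, Reep6, Mak and Rp2), and also for Rd3, but not for Pde6d or Arl3. Each line holds the 250 bases before the start, 5′ to 3′ on the strand of the gene, and capitals mark TAATCC or its reverse complement GGATTA, the core letters bound by OTX family factors such as Crx.
Aipl1 (GRCr8, chr10:57163456-57163705, minus strand): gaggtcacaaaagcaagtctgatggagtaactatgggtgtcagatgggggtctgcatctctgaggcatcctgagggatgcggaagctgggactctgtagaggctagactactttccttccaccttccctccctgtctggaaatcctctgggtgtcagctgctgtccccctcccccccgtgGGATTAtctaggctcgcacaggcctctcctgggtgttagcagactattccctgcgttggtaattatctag
Reep6 (GRCr8, chr7:10031272-10031521, minus strand): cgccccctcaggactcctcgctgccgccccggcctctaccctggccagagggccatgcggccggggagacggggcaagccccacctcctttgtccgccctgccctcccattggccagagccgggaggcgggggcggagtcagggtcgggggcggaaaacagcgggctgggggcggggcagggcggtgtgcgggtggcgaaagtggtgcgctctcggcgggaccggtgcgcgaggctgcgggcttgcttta
Mak (GRCr8, chr17:23889241-23889490, plus strand): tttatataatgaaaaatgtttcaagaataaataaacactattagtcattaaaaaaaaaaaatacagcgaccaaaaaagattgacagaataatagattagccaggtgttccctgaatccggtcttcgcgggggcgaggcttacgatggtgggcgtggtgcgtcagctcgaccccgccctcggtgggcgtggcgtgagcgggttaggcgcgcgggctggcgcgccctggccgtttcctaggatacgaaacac
Rp2 (GRCr8, chrX:4470190-4470439, minus strand): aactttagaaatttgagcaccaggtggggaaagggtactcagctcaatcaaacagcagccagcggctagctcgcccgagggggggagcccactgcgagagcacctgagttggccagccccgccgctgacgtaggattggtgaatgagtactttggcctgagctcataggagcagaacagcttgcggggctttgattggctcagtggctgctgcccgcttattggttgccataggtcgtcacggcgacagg
Only the Aipl1 window among the 5 held those letters, as GGATTA from 70 to 65 bases before the start. Of the 2 windows listed for Rd3, which has no value here, 1 held TAATCC at 5 places and the other at 0. In comparison, 6.34% of all 33469 RefSeq windows of this length held TAATCC on either strand. The partial site TGCTGA of Maf family factors such as Nrl, searched on both strands, was in 0 of the 5 windows and in 15.1% of all windows. With no TGCTGA match, no overlap between the 2 motifs arose. G and C made up 74.8% of the Reep6 window, 66.4% of the Unc119 window, 58.4% of the Rp2 window, 54.8% of the Aipl1 window and 50.0% of the Mak window, against a median of 51.2% over all windows. These matches describe letters in a fixed window and say nothing of binding.

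Expression is given in RPKM, which divides the reads of a gene by its length and by the size of the library; the unit was inferred from the numbers. The library sizes so recovered were 28071917 reads (eye) and 51944762 reads (retina), so the retina values rest on more reads. Markers of the retina were present in both libraries, whereas markers of other ocular tissue were far higher in eye. The 13 measured lens markers summed to 171389 in eye and 1573 in retina, and 13 of 13 were at least 2-fold higher in eye. The same held for 5 of 5 corneal and conjunctival markers (summed 4703 and 4.16), 7 of 7 skeletal muscle markers (2744 and 12.2) and 6 of 6 stroma markers (2176 and 8.42). Of 6 tested pigment epithelium markers 5 were higher (7 measured, summed 1433 and 465). None of these markers was at 0 in either library. Their part in the results below was not tested.

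Of the 7 genes, 3 were at least 2-fold lower in the eye library (Reep6, Mak and Aipl1), 0 were at least 2-fold higher, and 4 were not called. Unc119 came close, being 1.88-fold lower. Arl3 and Pde6d had nearly equal values in both libraries, and Rp2 had its higher value in eye. A call required log2((eye + 0.1) / (retina + 0.1)) of at least 1 in size, among the 13259 genes that reached 1 RPKM in eye, in retina or in both, a filter that 7 of 7 passed. By that rule 7.95% of all tested genes were lower in eye and 17.8% were higher. The median log2 fold over the 7 was -0.91, against -0.01 over all tested genes. In pooled tissue, more RNA from other ocular tissue, fewer photoreceptors and less RNA per photoreceptor cannot be told apart.

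**Figure D1:**
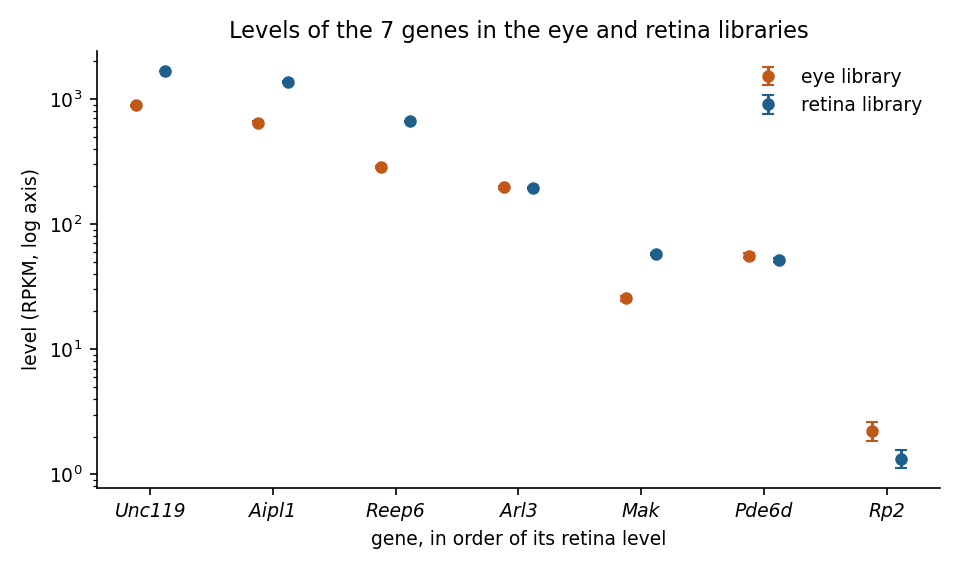
Level of each of the 7 genes in RPKM on a log axis, in the eye library (orange) and the retina library (blue), with exact 95% Poisson intervals of the reads as bars, many of them smaller than the points. Unc119, Aipl1, Reep6 and Mak sit higher in retina, Arl3 and Pde6d lie nearly level, and Rp2 is the lowest gene in both libraries.

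The levels spread widely among the 7. In retina the highest, Unc119, stood 1256-fold above the lowest, Rp2, and in eye the same pair lay 402-fold apart. The retina order was Unc119, Aipl1, Reep6, Arl3, Mak, Pde6d and Rp2. The eye order was the same except that Pde6d stood above Mak. In neither library did the 95% counting intervals of neighbours in the order overlap, although Mak and Pde6d were only 1.12-fold apart in retina. Unc119 ranked 7 and Aipl1 ranked 8 among the 14485 names in retina, and 30 and 39 in eye. Together the 7 made up 1.19% of all RPKM in retina, and 0.401% in eye.

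**Figure D2:**
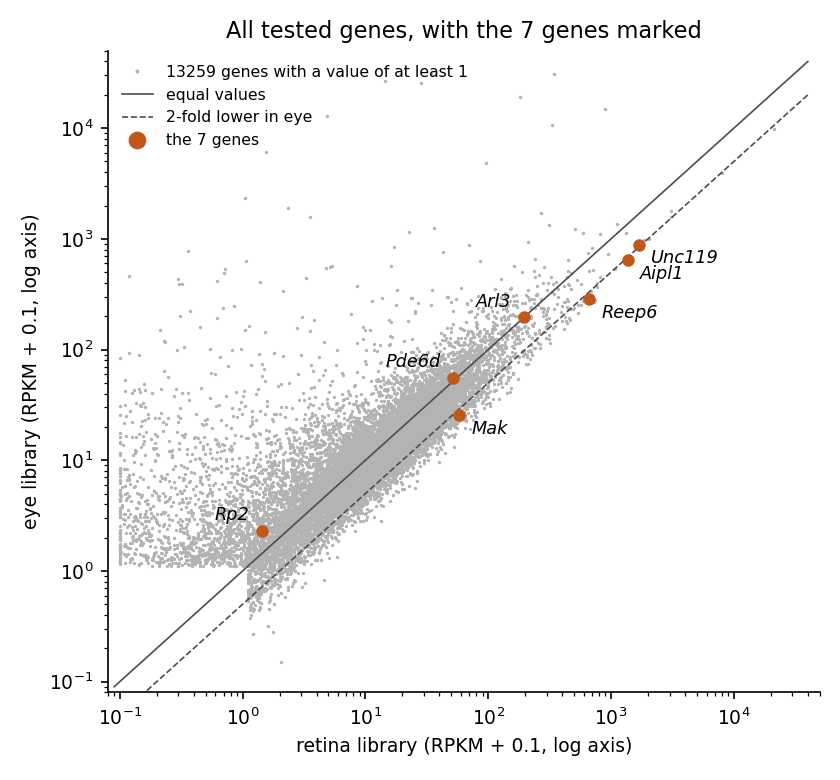
Eye against retina values (RPKM + 0.1, both axes log) of the 13259 tested genes in grey, with the 7 genes in orange, a solid line at equal values and a dashed line where eye is 2-fold lower. Aipl1, Unc119, Reep6 and Mak lie on or next to the dashed line, Arl3 and Pde6d on the solid line, and Rp2 above it.

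Among the carriers of lipidated cargo, the acyl carrier and the prenyl carrier differed in their pattern. Unc119 had 888 RPKM in eye (31241 reads) and 1673 in retina (108889 reads). It was 1.88-fold lower in eye, with an exact 95% interval from 1.86 to 1.91, just short of the threshold. Pde6d had 55.7 in eye (1690 reads) and 51.5 in retina (2890 reads). Its ratio of eye to retina was 1.08, with an interval from 1.02 to 1.15, and the direction turned when both libraries were given equal summed values. The fold intervals of these 2 genes did not overlap. Intervals are Clopper-Pearson intervals of the recovered reads; they cover counting error only and set library against library, not tissue against tissue.

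The release step showed no called difference. Arl3, the GTPase that frees the cargo, had 196 RPKM in eye (3493 reads) and 194 in retina (6407 reads), a ratio of 1.01 with an interval from 0.968 to 1.051. With equal summed values its log2 fold was -0.63. Rp2, the GTPase-activating protein of ARL3, was the gene of lowest level, with 2.21 in eye and 1.33 in retina. Only 129 and 144 reads stood behind these values. Its ratio was 1.66, and the interval from 1.30 to 2.12 reached past the 2-fold threshold. With equal summed values its log2 fold was 0.08, in place of 0.69. At these levels 20.0% of all gene names were lower than Rp2 in eye and 19.7% in retina.

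The folding factor, the membrane-shaping protein and the ciliary kinase were lower in eye. Aipl1, the HSP90 co-chaperone of PDE6, had 647 RPKM in eye (6542 reads) and 1363 in retina (25491 reads), a 2.11-fold difference with an interval from 2.05 to 2.16. Reep6, the membrane-shaping protein of rods, had 284 in eye (16971 reads) and 661 in retina (72991 reads). It had the largest fold of the 7 toward retina, 2.32-fold with an interval from 2.29 to 2.36. Mak, the ciliary kinase, had 25.4 in eye (1634 reads) and 57.6 in retina (6853 reads), a 2.27-fold difference with an interval from 2.15 to 2.39. The Mak interval overlapped those of Reep6 and of Aipl1, while the intervals of Reep6 and Aipl1 lay apart. Of 21 pairs among the 7 genes, 3 had overlapping fold intervals, namely these 2 pairs with Mak and the pair of Pde6d and Arl3.

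**Figure D3:**
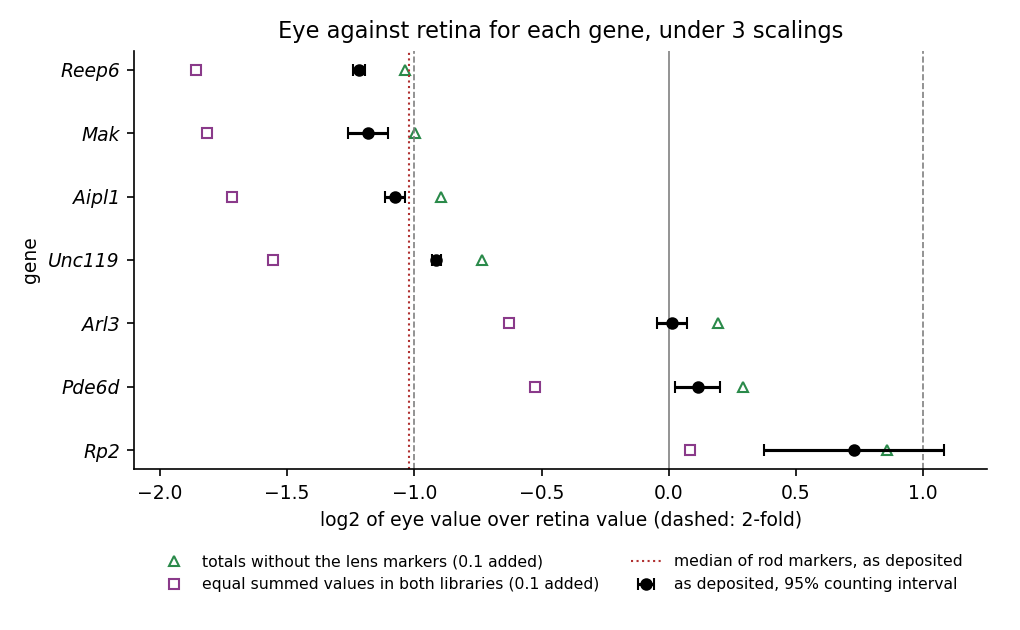
Log2 ratio of eye to retina for each gene as deposited (black, bars are exact 95% counting intervals), with library totals that leave out the lens markers (green triangles) and with equal summed values (purple squares), beside the rod marker median (dotted) and the 2-fold lines (dashed). The spacing between genes stays nearly the same under each scaling, and a gap separates Unc119 at -0.91 from Arl3 at 0.01.

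The number of called genes depended on how the libraries were scaled, because 3 of the genes lay near the threshold. Lens markers took 11.8% of the eye reads and 0.115% of the retina reads. With totals that left them out, only Reep6 was still called, at a log2 fold of -1.04, while Mak at -0.998 just missed the threshold, with Aipl1 at -0.89 and Unc119 at -0.73. In that setting 581 of all tested genes were lower (4.38%) and 2769 higher (20.9%), in place of 1054 and 2366. With equal summed values 4 of the 7 were called lower, Unc119 being the addition at -1.55. That scaling moved the log2 median of all tested genes from -0.01 to -0.64 and gave 4264 lower (32.2%) and 1530 higher genes (11.5%).

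Differences from the rod marker list are free of such scaling. The 8 measured rod markers had a median log2 fold of -1.02, and they ranged from -1.12 to -0.48. Relative to that median, Aipl1 was at -0.05, Unc119 at 0.11, Mak at -0.16 and Reep6 at -0.20. Aipl1 and Unc119 thus fell inside the range of the rod markers, and Mak and Reep6 slightly below its low end. Pde6d, Arl3 and Rp2 were at 1.13, 1.03 and 1.71 relative to the rod median, above the highest of the 8 listed rod markers. Set against the 9 cone markers (median -1.15), Reep6 was at -0.07, Mak at -0.03, Aipl1 at 0.07 and Unc119 at 0.24. Against the 11 inner retina markers (median -0.71), the same genes were at -0.51, -0.47, -0.36 and -0.20. The highest cone marker, Cngb3, had a log2 fold of 0.01, and the highest inner retina marker, Rbpms, had 0.17. Arl3 at 0.01 and Pde6d at 0.11 thus lay inside the inner retina range, and Rp2 at 0.69 lay above it. Gngt1, the transducin gamma subunit of rods, is outside the rod list. It had 0.30, above Arl3 and Pde6d and below Rp2, so not every rod gene lay in the range of the listed markers. The split of the 7 genes relative to the rod markers was seen in the values and was not set beforehand.

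Ratios within a library, of a carrier to its cargo or of a folding factor to the protein it folds, were computed next. They too are free of scaling between libraries. Unc119 stood at 0.224 of the level of Gnat1, the rod transducin alpha subunit, in eye (interval 0.222 to 0.227) and at 0.210 in retina (0.209 to 0.211). Aipl1 stood at 2.34 times the level of Pde6a, a catalytic subunit of the rod phosphodiesterase, in eye (2.27 to 2.42) and 2.29 in retina (2.25 to 2.33), so the intervals overlapped. Against Pde6b, the other catalytic subunit, Aipl1 stood at 1.43 in eye (1.397 to 1.473) and 1.67 in retina (1.65 to 1.69). These 3 ratios of eye to retina lay between 0.858 and 1.07. For Unc119 to Gnat1 and for Aipl1 to Pde6b the intervals of the 2 libraries did not overlap.

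Ratios that set Pde6d, Arl3 or Rp2 against another gene were mixed. Pde6d stood at 0.625 of the level of Grk1, the farnesylated opsin kinase, in eye (0.591 to 0.660) and at 0.226 in retina (0.217 to 0.235), a 2.77-fold change of the ratio. Against Pde6a it stood at 0.202 in eye (0.191 to 0.213) and 0.0865 in retina (0.0832 to 0.0899), a 2.33-fold change. Arl3 stood at 0.221 of Unc119 in eye (0.213 to 0.228) and at 0.116 in retina (0.113 to 0.119). Arl3 to Pde6d was 3.52 in eye (3.32 to 3.73) and 3.77 in retina (3.61 to 3.94), with overlapping intervals. Rp2 to Arl3 was 0.0113 in eye (0.00938 to 0.0134) and 0.00686 in retina (0.00577 to 0.00809).

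Close relatives of the members were at lower levels and mostly near equal in both libraries. Unc119b, the paralog of Unc119, had 24.0 RPKM in eye and 30.1 in retina. Unc119 thus stood 37.0 times above it in eye and 55.6 times in retina. Unc119b was not called. Arl2, which like ARL3 binds these carriers, had 38.3 and 42.2, Arl6 had 40.6 and 38.6, and Arl13b, known to activate ARL3, had 6.10 and 6.92.

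No other REEP gene was called lower as Reep6 was, but in a list of 4 that is near the share over all genes. Over all tested genes 7.95% were lower and 17.8% higher. Of the 4 other REEP genes measured, Reep3 (20.3 in eye and 7.12 in retina) and Reep4 (7.15 and 3.06) were 2.85-fold and 2.33-fold higher in eye. Reep5 had 59.8 and 49.5 and Reep1, with its higher value in retina as for Reep6, 12.4 and 17.3, neither of them called. The ratio of Reep6 to Reep5 was 13.4 in retina (13.0 to 13.7) and 4.75 in eye (4.61 to 4.91).

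In the MAK kinase family, Mok was lower in eye as Mak was, and Ick was not. Mok had 5.47 in eye and 12.3 in retina, 2.25-fold lower (1.96 to 2.60), and the ratio of Mak to Mok was 4.65 in eye and 4.68 in retina, with overlapping intervals. Ick, the intestinal cell kinase, had 9.99 and 6.86, so that Mak stood at 2.55 times its level in eye and 8.41 times in retina. In the wider list of 6 measured genes, meant for kinases and ciliary genes, 1 was lower (Mok) and 0 were higher, with a median of -0.26. In a list this short such counts are near the shares over all tested genes, 7.95% lower and 17.8% higher. The list included Rp1, a microtubule protein of the outer segment axoneme (116 and 161), Cdk20, an activating kinase of this family (10.8 and 16.5), and Kif3a, a motor of ciliary transport (15.7 and 16.2), none of them called. It also held Mak16 (9.03 and 8.21), a ribosome assembly factor that is no relative of Mak, and without it the median of the other 5 was -0.48, a setting chosen after the values were seen.

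**Figure D4:**
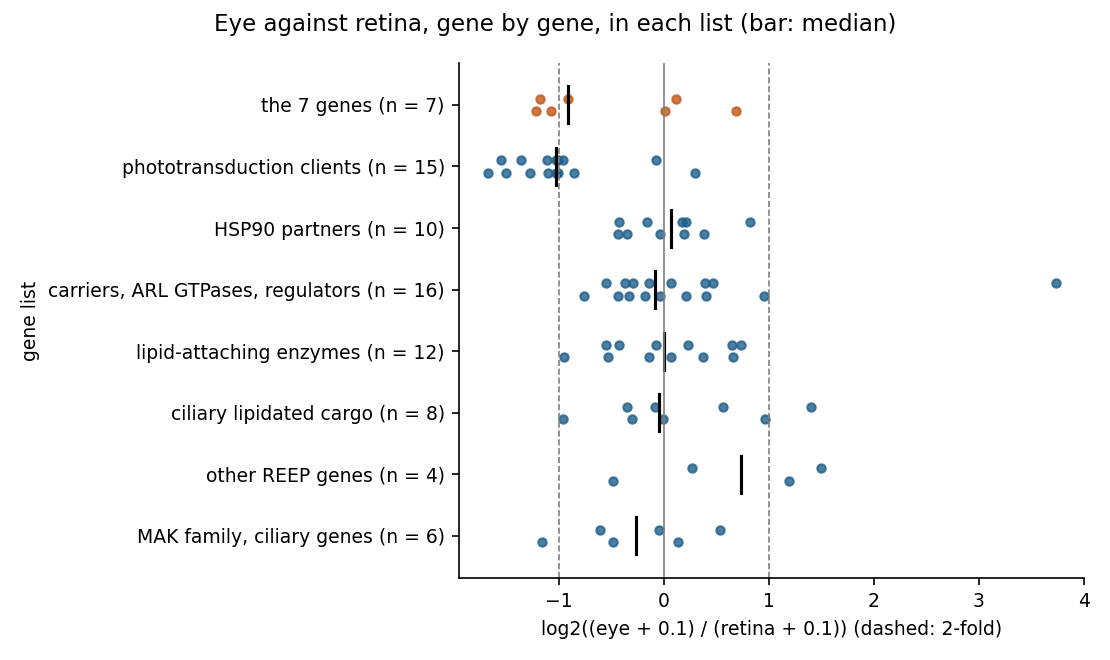
Log2 ratio of eye to retina, with 0.1 added to each value, for each gene of 8 lists (points) with the list median (bar), dashed lines marking 2-fold. The phototransduction clients lie mostly at or below -1, with a median of -1.02, whereas the medians of the HSP90 partners, carriers, lipid-attaching enzymes and ciliary cargo lie near 0.

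The proteins served by this machinery were mostly lower in eye. Of 15 tested phototransduction clients, 11 were lower and 0 higher, with a median of -1.02. Over all tested genes 7.95% were lower and 17.8% higher, with a median of -0.01. The list is not separate from the markers above. It shares Gnat1, Pde6a and Pde6b with the rod markers, and Gnat2, Gnb3, Gngt2, Pde6c and Pde6h with the cone markers. The lower clients included Gnat1 (3959 in eye and 7967 in retina), Grk1 (89.1 and 228) and Gucy2e, a retinal guanylate cyclase and the kind of enzyme that RD3 serves (27.1 and 76.9). Also lower were the cyclase Gucy2f, the cyclase activators Guca1a and Guca1b, Gnat2 of cones, Gnb1, Gnb3, Pde6a and Pde6h. Guca1b had 540 and 1081, a 2.00-fold difference whose interval of 1.98 to 2.03 spanned the threshold. Those not called were Pde6b (451 and 815), Pde6c (6.09 and 11.9), and the transducin gamma subunits Gngt1 (1371 and 1112) and Gngt2 (31.4 and 33.0). The gamma subunits stood apart from the other 13. They carry a farnesyl tail, as does Grk1, which was lower in eye. Any part of the tail in this was not tested.

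Counts in the lists of general machinery are read against the 7.95% of all tested genes that were lower and the 17.8% that were higher, and in lists this short a count of 0 lower is near that share. Of 10 tested HSP90 partners and relatives 0 were lower and 0 higher, with a median of 0.07, and the highest were Hsp90ab1, an HSP90 chaperone itself (189 and 145), Fkbp8 (126 and 170) and Fkbp4 (103 and 139). Of 16 carriers, ARL GTPases and regulators, 1 was higher and 0 lower, with a median of -0.08. The higher one was Arhgdib, a GTPase regulator of blood cells, at 30.01 and 2.16. Among the most abundant were Arl2bp, a partner of ARL2 and ARL3 (101 and 130), and Arhgdia (96.7 and 70.0). Rab28, a prenylated GTPase carried by PDE6D, had 89.5 and 68.3.

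The enzymes that attach or trim the lipid tails were not called in any of 12 cases, with a median of 0.00. Icmt, which methylates prenylated proteins, came nearest, at 52.3 in eye and 100.8 in retina, a 1.93-fold difference (1.84 to 2.01). Rabggtb, a subunit of the Rab prenylating enzyme, had 78.1 and 82.2, and Fnta, the shared subunit of 2 prenyl transferases, had 50.5 and 38.9. Of 8 measured genes of ciliary lipidated cargo, 1 was higher, the transport GTPase Rab11a (54.1 and 20.4), and 0 were lower, with a median of -0.04. In that list Ptp4a3, a prenylated phosphatase, had 97.9 and 190, a 1.94-fold difference short of the threshold, and Rab8a, a GTPase of ciliary transport, had 37.9 and 38.0.

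By values in the 2 libraries alone, the gene nearest to Unc119 was Rcvrn, which encodes recoverin, at 986 in eye and 1848 in retina (distance 0.21 on the log2 scale). The nearest to Aipl1 was Guca1b at a distance of 0.43, and the nearest to Reep6 was Eno2, a neuronal enolase, with 299 and 615 at a distance of 0.13. For Mak it was Gpr162 (25.6 and 58.7), for Arl3 Atp5d (188 and 193), for Pde6d Setd3 (55.7 and 51.1) and for Rp2 Tipin (2.21 and 1.36). With only 2 values per gene such likeness is a weak description: 18 other genes lay within 0.1 of Pde6d, 8 of Rp2, 7 of Mak and 3 of Arl3, against 0 of Aipl1, Unc119 and Reep6.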

How the data were processed

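RNA sequencing values of 1 eye column and 1 retina column were analysed. GSNAP, HTSeq and the rat build rn4 are named per the submitters' processing notes, without versions or roles, while annotation and strand use are not stated in those sources, so overlapping or near-identical genes may share reads. The deposited values are taken as RPKM, inferred from the values. Of 14533 rows, 7 with ND were dropped, and of 41 repeated names the row with most decimals was kept. Library totals were the whole numbers most often implied by short genes of known span (52 and 45 of 303 genes). With them, whole reads in both libraries were found for 13980 of 13980 genes with at least 6 decimals. These are the smallest reads that fit, so intervals are if anything too wide. Older symbols were matched through synonyms in a GRCr8 table. Folds used 0.1 added, a minimum value of 1 and a threshold of 2-fold. Alternatives varied these and the scaling. The steps were tested on simulated data. Python 3.11.15, pandas 2.3.3, NumPy 2.4.6 and SciPy 1.17.1 were used. The named genes were the members, their paralogs, the 3 most abundant and all called genes of each pathway list, the 2 most abundant of each marker list, and the nearest gene to each member. Marker lists are given as sums, and a few genes of these lists are left unnamed. Members and lists were chosen with earlier results of these data known.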

Additional observations from a re-analysis of the deposited data

How the results depend on the processing

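The count of 3 genes lower in eye was the same with 1 or 0.01 added, with no minimum value, with a minimum of 5 (which dropped Rp2, leaving 6 tested), with a trimmed mean of log ratios and with a median of ratios. It was 4 with equal summed values and at a fold of at least 1.5, 1 with totals without the lens markers and 0 at a fold of at least 4. The count of genes higher in eye, 0 as reported, was 1 (Rp2) at a fold of at least 1.5 and 0 in the other settings. No called gene changed sign. Over all tested genes the count lower in eye, 1054 as reported, was 655 with 1 added, 12 at a fold of 4 and 2910 (21.9%) at a fold of 1.5. The count higher, 2366, was 1471 with a minimum of 5 and 1203 at a fold of 4. The minimum of 5 left 10018 genes tested, so the share higher was 14.7%, in place of 17.8%. These moves follow from how each setting is built. No paired analysis was possible because each tissue had 1 column of values, and for the same reason no replicate could be left out. Depth limits Rp2 most, with 129 and 144 reads.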

Other observations

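Beyond the genes above, 13 measured genes of sorting in the secretory pathway and of outer segment membranes gave 3 lower in eye and 1 higher, with a median log2 fold of -0.43. Over all tested genes 7.95% were lower and 17.8% higher. Tulp1, a photoreceptor protein needed for transport to the outer segment, was at 280 in eye and 736 in retina, 2.63-fold lower (interval 2.58 to 2.68). Cngb1, a subunit of the rod cyclic nucleotide-gated channel, was 2.32-fold lower and Rdh8, a retinol dehydrogenase of outer segments, 2.09-fold lower. Arf4, a small GTPase of Golgi export, was at 87.6 and 31.1, 2.82-fold higher in eye. Among those not called, Cnga1, the other subunit of that channel, was at 200 and 279, and the chaperone gene Canx (calnexin) was at 130 and 91.5.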
